A study of Homo sapiens with 6 samples.

Results

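Described here are the genes of the histone lysine methyltransferases and demethylases in HEK293FT cells, chosen by name from the deposited table. The rule took gene names of the families KMT, SETD, NSD, EZH, SUV39H, EHMT and PRDM, which hold methyltransferases, and KDM, which hold demethylases, leaving out KDM5D. It found 60 genes of the 58884 listed: 26 methyltransferase genes, 19 KDM genes and 15 PRDM genes. HEK293FT is an established human embryonic kidney line that carries the SV40 large T antigen. All cells were kept in DMEM with 10% serum and received a culture supernatant for 72 h, either one with secreted ISLR (3 ISLR-labelled libraries) or one from an empty vector control (3 NC-labelled libraries). The ISLR protein belongs to the leucine-rich repeat family and leaves the cell. The labels name neither the cells that made the supernatant nor separate cultures for the 3 libraries of a group, so p-values measure no more than the spread among the libraries at hand, possibly a technical one.

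Methyltransferases move methyl groups from S-adenosylmethionine to lysines of histone tails, and most of them do so with a SET domain. Demethylases take them off, the KDM1 enzymes by flavin-dependent oxidation and the others with a JmjC domain that needs iron and 2-oxoglutarate. Methylation of lysine 4 of histone H3 (H3K4) marks active promoters and enhancers, that of lysine 36 (H3K36) the bodies of transcribed genes, and that of lysines 9 and 27 (H3K9, H3K27) silent chromatin. Only RNA was measured here, so nothing below speaks of enzyme activity or of the marks.

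Values are TPM, the share of transcripts per gene corrected for length, and TPM keeps no record of sequencing depth, so the depth of the libraries is unknown. The ISLR transcript itself was at 0 to 0.02 TPM in the ISLR-labelled libraries and at 510.32 to 555.37 TPM in the NC-labelled ones. Groups are therefore called by their labels, and an exchange of the column labels would turn every direction. Between 14004 and 14092 genes reached 1 TPM in the ISLR-labelled libraries and 13365 to 13470 in the NC-labelled ones. All 8 markers listed for the HEK293 line, such as VIM, KRT8 and NEFM, reached 1 TPM in at least 1 library. Their summed levels were 1598.24 to 1660.76 TPM (labelled ISLR) and 1449.13 to 1474.12 TPM (labelled NC). Most of these sums was VIM, at 1218.81 to 1259.53 and 1116.16 to 1137.29 TPM. PAX2 reached 1 TPM in the NC-labelled libraries only (1.17 to 1.5 TPM, against 0.81 to 0.95 TPM labelled ISLR). Of 8 stromal markers 2 reached 1 TPM in at least 1 library, COL1A1 and COL3A1 (sums of 13.67 to 14.85 and 11.8 to 16.91 TPM), and none of 4 blood cell markers (sums of 0.22 to 0.61 and 0.14 to 0.18 TPM). Of the stromal genes, COL1A2 and THY1 were at or near 0, COL1A1 was at 8.95 to 14.28 TPM and COL3A1 at 1.2 to 1.81 TPM. The blood cell markers CD3E and HBB were listed at 0 in every library. The part of other cell types in the results was not tested.

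Among the 60 genes, 10 rose in the ISLR-labelled libraries on both scales of comparison, led by KMT2D, NSD1 and KDM4A. EZH1, EHMT2 and KMT2E were called lower on 1 scale only, with libraries scaled to a median log2 difference of 0.00 over all tested genes. On that scale, 18.2% of all tested genes were called higher and 20.4% lower. The share of all tested genes called on both scales is not given here. Levels were compared on log2(TPM + 1) with limma over all 13869 genes that reached 1 TPM in at least 3 libraries, at a Benjamini-Hochberg adjusted p under 0.05. The median log2 difference (labelled ISLR minus labelled NC) over all of these genes was 0.22, so the comparison was repeated after median-of-ratios scaling of the libraries, which brought that median to 0.00. Differences below are those after scaling, "rose" is written only where both comparisons called a gene, and "as deposited" means without scaling. Of the 60 genes 50 were tested. As deposited, 28 of the 50 were called higher, where the share of all tested genes called higher was 38.5%, and none was called lower, where that share was 7.38% (45.9% in either direction). Only KMT2D of the 50 was called with a change of at least 2-fold, as were 2.25% of all tested genes. At an unadjusted p under 0.05 limma found 29 of the 50 higher and 1 lower as deposited. The shares of all tested genes at that cut are not given here. At an adjusted p under 0.05 the authors' deposited table has 24 of the 60 with a higher mean (32.9% of all tested genes). It has 5 of the 60 with a lower mean (18.3% of all tested genes). After scaling, 10 of 50 were called higher (18.2% of all tested genes) and 5 lower (20.4%, and 38.6% in either direction). Fewer cells of a kind and less RNA per cell cannot be told apart in such bulk libraries. The groups did not overlap for 31 of the 50 with the ISLR-labelled libraries above and for none with them below, against 46.3% and 10.5% of all tested genes as deposited. After scaling they did not overlap for 19 above and 12 below, against 26.1% and 26.6% of all tested genes. The median log2 difference of the 50 genes was 0.32 as deposited and 0.11 after scaling, beside 0.22 and 0.00 over all tested genes.

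**Figure D1:**
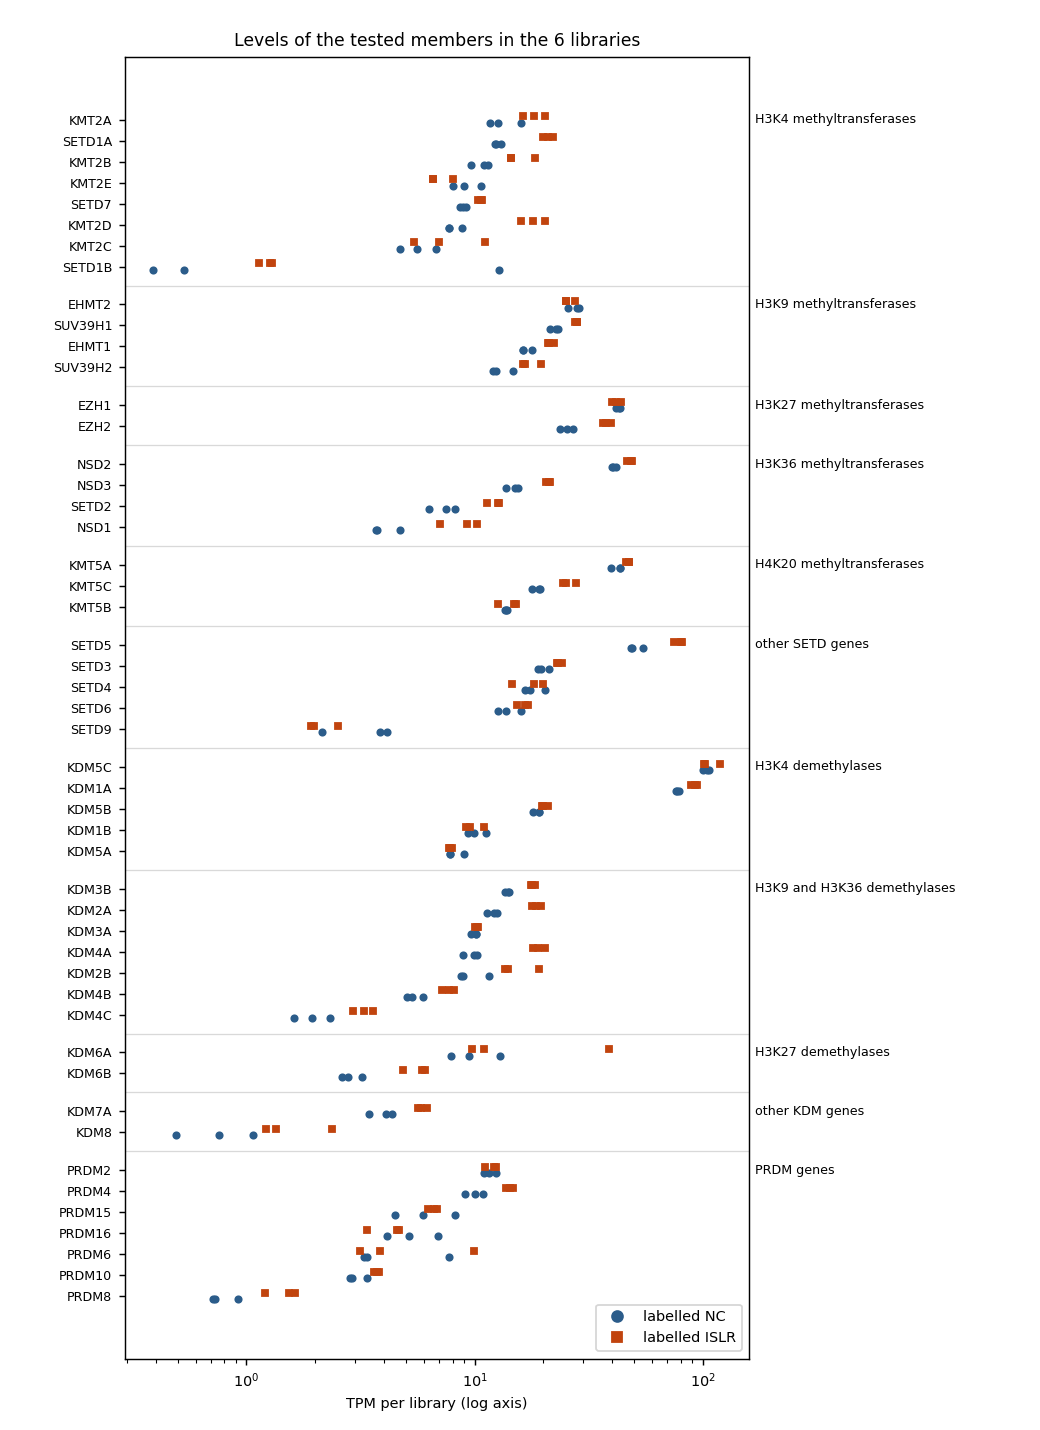
TPM of 49 of the 50 tested genes (rows, grouped by role) in each library on a log axis, with circles for the 3 NC-labelled libraries and squares for the 3 labelled ISLR. KMT2D, NSD1 and KDM4A show the groups well apart, EZH1 shows them overlapping, and single libraries stand off for SETD1B (12.79 TPM) and KDM6A (38.63 TPM).

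The genes were long, with a median length of 6499 nt against 3342 nt for all tested genes, and length moved with the differences over the whole table. After scaling, the median log2 difference was -0.22 between 81 and 1250 nt and 0.10 between 5152 and 6783 nt. With the trend over length also removed, 10 of the 50 were higher (16.4% of all tested genes) and 11 lower (20.4%, and 36.8% in either direction), and their median was 0.02 (all tested genes -0.01). Of the 10 genes that rose, 9 kept the call with that correction, NSD3 being the exception (adjusted p = 0.0969).

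**Figure D2:**
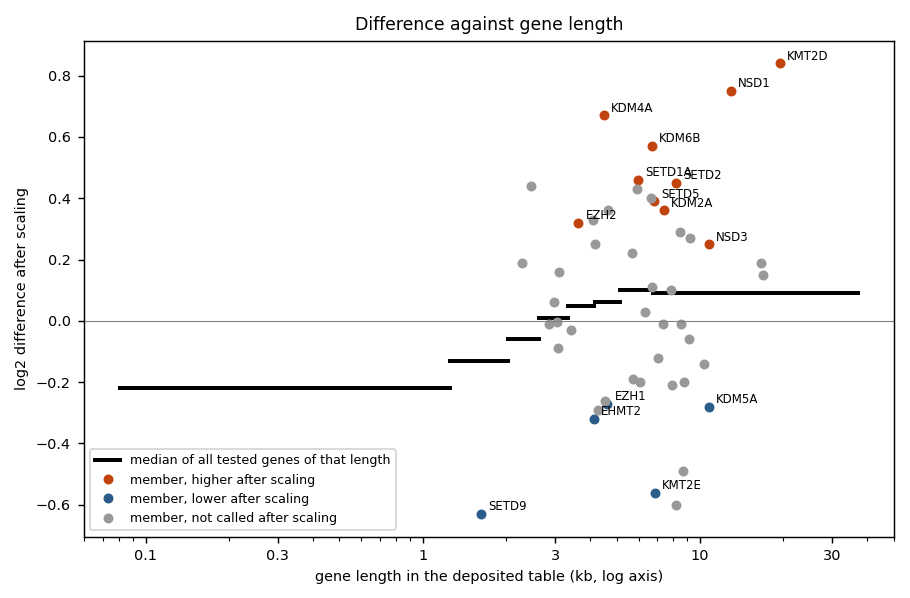
Log2 difference after scaling (vertical) against gene length in kilobases (horizontal, log axis) for 49 of the 50 tested genes, coloured by their call after scaling, with black bars for the median of all tested genes in 8 length classes. KMT2D, NSD1 and KDM4A lie far above the bars, which run from -0.22 to 0.10.

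The H3K4 methyltransferases held the largest rise. KMT2D, which with KMT2C places a single methyl group at enhancers, stood at 15.93, 20.28 and 18.10 TPM in the ISLR-labelled libraries and at 7.73, 7.69 and 8.79 TPM in the NC-labelled ones. Every library labelled ISLR was clearly above every one labelled NC, and the mean was 2.24 times as high. Its log2 difference was 0.84 (95% interval 0.61 to 1.07, limma adjusted p = 0.000407 as deposited and 0.000817 after scaling). SETD1A, the catalytic subunit of a complex that trimethylates H3K4 at promoters, stood at 19.84, 22.07 and 20.98 against 12.37, 13.03 and 12.34 TPM. The groups lay well apart here too (0.46, interval 0.30 to 0.61, adjusted p = 0.000412 and 0.00194). KMT2A, the mixed-lineage leukemia gene product, stood at 16.28, 18.22 and 20.38 against 16.04, 11.62 and 12.69 TPM. Its groups nearly touched, and it was called as deposited only (adjusted p = 0.0338 and 0.27). The deposited call of KMT2A was lost when labelled ISLR 2 or 3, or else labelled NC 2 or 3, was left out (adjusted p = 0.0781, 0.106, 0.0949 and 0.0895). KMT2A shares exon bases with AP001267.5 on the same strand, which reached at most 8.06 TPM.

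KMT2B, the closest relative of KMT2A, was likewise called as deposited only (15.8 ± 2.32 against 10.7 ± 0.922 TPM, mean ± SD, n = 3 each, limma adjusted p = 0.0094 and 0.0861). SETD7, which monomethylates H3K4 and many other proteins, stood at 10.6 ± 0.227 against 8.92 ± 0.275 TPM, and its deposited call (adjusted p = 0.0395) was lost without any 1 of the 6 libraries (0.061 to 0.102). KMT2C stood at 5.43, 11.13 and 6.97 against 6.80, 4.71 and 5.57 TPM, with overlapping groups (adjusted p = 0.256 and 0.649). Stretches of KMT2C have near-identical copies elsewhere in the genome, so its reads may not be its own alone. KMT2E, a family member for which no methyltransferase activity is established, went the other way at 6.56, 6.60 and 8.05 against 9.0, 8.02 and 10.70 TPM. Just 1 library of each group overlapped, and it was lower after scaling (-0.56, interval -0.84 to -0.28, adjusted p = 0.0622 as deposited and 0.00981 after scaling). KMT2E shares exon bases with SRPK2 and KMT2E-AS1 on the opposite strand, and the use of strand in counting, not given in the sources used here, is unknown.

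SETD1B, the paralog of SETD1A, was set by 1 library. It stood at 1.27, 1.13 and 1.30 TPM in the ISLR-labelled libraries and at 0.53, 0.39 and 12.79 TPM in the NC-labelled ones, so labelled NC 3 was far above all others. Its fitted log2 difference as deposited was -0.47 (adjusted p = 0.717) with all libraries and 0.61 (adjusted p = 0.0289) without labelled NC 3. Such a jump, at least 3 times both other libraries of the group and at least 5 TPM, was seen for 221 gene and library pairs, 1.59% of the number of tested genes, and for 41 genes in labelled NC 3.

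The H3K36 methyltransferases were the group in which each gene was called higher as deposited (4 of 4, with 38.5% of all tested genes), and 3 of these 4 were also called after scaling (18.2%). NSD1, which adds up to 2 methyl groups and is mutated in Sotos syndrome, stood at 7.04, 10.25 and 9.29 TPM in the ISLR-labelled libraries against 3.75, 3.69 and 4.69 TPM. The groups lay well apart, the ISLR-labelled libraries spreading more (0.75, interval 0.41 to 1.08, limma adjusted p = 0.00232 as deposited and 0.00644 after scaling). SETD2, the enzyme of H3K36 trimethylation, stood at 12.82, 11.30 and 12.64 against 6.33, 7.51 and 8.20 TPM. Its groups did not overlap either, and the difference was 0.45 (0.19 to 0.70, adjusted p = 0.00249 and 0.0161). After scaling the call of SETD2 was lost without labelled ISLR 1 or 3 (adjusted p = 0.0571 and 0.0525). NSD3 stood at 20.56, 21.19 and 21.31 against 15.48, 15.03 and 13.77 TPM, again without overlap (0.25, interval 0.09 to 0.41, adjusted p = 0.00142 and 0.0245). The scaled call of NSD3 was lost when any ISLR-labelled library or labelled NC 3 was left out (adjusted p = 0.0651, 0.0668, 0.0671 and 0.0652), and NSD3 shares exon bases with DDHD2 on the opposite strand. NSD2, the most abundant of the 4, stood at 48.1 ± 1.24 against 40.7 ± 0.745 TPM. It was called higher as deposited but not after scaling (limma adjusted p = 0.00504 and 0.901).

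The pair of H3K27 methyltransferases, alternative catalytic subunits of the Polycomb repressive complex PRC2, parted. EZH2, the form typical of dividing cells, stood at 36.59, 37.67 and 39.40 TPM in the ISLR-labelled libraries and at 27.02, 25.40 and 23.73 TPM in the NC-labelled ones. EZH1, the form that prevails in resting cells, stood at 41.48, 40.10 and 43.81 against 41.56, 42.86 and 43.54 TPM. The EZH2 groups did not overlap, whereas the EZH1 groups covered the same range. After scaling EZH2 was higher (0.32, interval 0.17 to 0.47, limma adjusted p = 0.000695 as deposited and 0.00702 after scaling) and EZH1 lower (-0.27, interval -0.39 to -0.16, adjusted p = 0.671 and 0.00478). The ratio of EZH2 to EZH1 within a library, which no scaling between libraries can change, was 0.882, 0.939 and 0.899 in the ISLR-labelled libraries and 0.650, 0.593 and 0.545 in the NC-labelled ones. The ISLR-labelled libraries thus had nearly equal levels of both, and all 3 were above the NC-labelled ones.

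The sequences before the starts of EZH2 and EZH1 are shown because these 2 genes with the same role differed, and those of KMT2D and KDM4A because they are among the largest rises and have 1 listed start each. Shown are the 250 bases before the RefSeq start (GRCh38.p14), EZH2 at chr7:148884292-148884541 on the minus strand, EZH1 at chr17:42745041-42745290 on the minus strand, KMT2D at chr12:49060795-49061044 on the minus strand and KDM4A at chr1:43649899-43650148 on the plus strand. EZH2 has another listed start, not shown, and the KMT2D start lies 1020 nt from that of GENCODE 29. Capitals mark matches to any motif searched, on either strand.
EZH2: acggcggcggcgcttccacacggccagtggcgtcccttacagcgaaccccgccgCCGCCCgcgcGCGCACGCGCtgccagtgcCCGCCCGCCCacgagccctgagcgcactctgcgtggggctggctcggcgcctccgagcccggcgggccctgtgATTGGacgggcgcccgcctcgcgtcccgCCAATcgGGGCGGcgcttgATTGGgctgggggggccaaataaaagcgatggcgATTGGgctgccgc
EZH1: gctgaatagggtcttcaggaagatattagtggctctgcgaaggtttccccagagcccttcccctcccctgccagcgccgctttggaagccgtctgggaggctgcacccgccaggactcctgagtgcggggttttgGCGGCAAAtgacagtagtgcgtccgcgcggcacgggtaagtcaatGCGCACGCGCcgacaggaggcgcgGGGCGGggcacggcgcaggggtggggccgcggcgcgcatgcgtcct
KMT2D: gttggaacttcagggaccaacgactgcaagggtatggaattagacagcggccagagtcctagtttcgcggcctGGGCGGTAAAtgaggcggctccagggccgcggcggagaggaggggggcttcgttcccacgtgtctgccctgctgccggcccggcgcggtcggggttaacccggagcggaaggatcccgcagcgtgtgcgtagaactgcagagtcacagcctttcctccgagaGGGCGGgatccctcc
KDM4A: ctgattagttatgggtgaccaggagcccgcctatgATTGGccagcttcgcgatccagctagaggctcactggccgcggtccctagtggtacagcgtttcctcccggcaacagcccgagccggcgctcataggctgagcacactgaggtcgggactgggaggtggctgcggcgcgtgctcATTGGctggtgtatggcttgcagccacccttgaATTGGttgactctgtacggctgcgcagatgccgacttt
The motifs were the GC box (GGGCGG), E2F (TTTNNCGC), ETS (CCGGAAG), CRE (TGACGTCA), the ATF4-CEBP element (TGATGNAA), the TATA box (TATAAA), NRF1, and the CCAAT box by the letters of its name. The EZH2 stretch holds 4 CCAAT boxes, 4 GC boxes, 2 of which overlap, and 1 NRF1 match. EZH1 has 1 match each to NRF1, E2F and the GC box and no CCAAT box. KMT2D has 2 GC boxes, 1 of which overlaps an E2F match, and KDM4A has 3 CCAAT boxes and no GC box. Among 81 listed starts of 53 of the 60 genes, 71.6% had a GC box and 37.0% a CCAAT box, against 42.6% and 32.0% of all 35116 starts of the table. For NRF1 and E2F the shares were 8.64% each against 5.07% and 5.92%, for ETS 7.41% against 8.52% and for CRE 1.23% against 1.65%. The TATA box was found at 2.47% against 10.7%, and the ATF4-CEBP element at none of the 81 against 3.14%. A match is a stretch of letters and not a measured site.

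Of the 4 H3K9 methyltransferases taken by the naming rule, 3 were called higher as deposited and none after scaling (38.5% and 18.2% of all tested genes). SUV39H1, which trimethylates H3K9 in heterochromatin, stood at 27.9 ± 0.369 TPM in the ISLR-labelled libraries against 22.4 ± 1.02 (limma adjusted p = 0.0048 as deposited and 0.407 after scaling). SUV39H2 stood at 17.5 ± 1.79 against 13.1 ± 1.41 TPM (adjusted p = 0.0188 and 0.28), and its deposited call was lost when labelled ISLR 1, or else labelled NC 1 or 2, was left out (0.0557, 0.0568 and 0.0579). EHMT1 and EHMT2, which form the dimer that dimethylates H3K9, did not move together. EHMT1 stood at 21.02, 21.23 and 22.26 against 17.92, 16.30 and 16.34 TPM, with the groups apart (adjusted p = 0.00568 and 0.253). EHMT2 stood at 25.11, 27.54 and 25.23 against 28.16, 28.62 and 25.73 TPM. The EHMT2 groups overlapped, and it was lower after scaling (-0.32, interval -0.48 to -0.16, adjusted p = 0.364 and 0.0103). Its call after scaling held without each library in turn (largest adjusted p = 0.0391).

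Of the H4K20 methyltransferases none was called after scaling, but with the trend over length also removed KMT5C was called higher (0.23, limma adjusted p = 0.0307) and KMT5B lower (-0.29, 0.0244). KMT5C, which with KMT5B adds further methyl groups, stood at 24.47, 27.74 and 25.09 against 19.34, 17.92 and 19.24 TPM, without overlap (limma adjusted p = 0.00265 as deposited and 0.0547 after scaling). KMT5B stood at 12.67, 15.13 and 14.86 against 13.93, 13.70 and 13.59 TPM, with overlap (adjusted p = 0.705 and 0.0875). KMT5A, which adds the first methyl group, stood at 47.0 ± 0.811 against 42.1 ± 2.14 TPM (adjusted p = 0.0456 and 0.229), and its deposited call was lost without any 1 of the 6 libraries (0.0585 to 0.115).

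Of the other SETD genes, SETD5, a chromatin regulator mutated in intellectual disability, rose. It stood at 80.59, 74.88 and 81.23 TPM in the ISLR-labelled libraries against 48.22, 54.67 and 48.89 TPM, with the groups well apart (0.39, interval 0.23 to 0.54, limma adjusted p = 0.000412 and 0.00412). Only KDM5C and KDM1A had higher mean levels among the 60 genes. SETD3, which methylates a histidine of actin and not a histone, stood at 23.5 ± 0.597 against 19.9 ± 1.13 TPM (adjusted p = 0.0233 and 0.91), and the deposited call was lost when labelled ISLR 1 or 3, or else labelled NC 2 or 3, was left out (0.0529, 0.0735, 0.0641 and 0.0735). SETD9 stood at 1.97, 1.92 and 2.51 against 4.11, 2.15 and 3.83 TPM, with 1 low library labelled NC inside the other group's range. It was lower after scaling (-0.63, interval -1.11 to -0.15, adjusted p = 0.109 and 0.0447), but not when any ISLR-labelled library or labelled NC 1 or 3 was left out (0.111, 0.118, 0.0697, 0.122 and 0.123). SETD4 stood at 17.6 ± 2.74 against 18.2 ± 2 TPM and SETD6, which methylates the NF-kappaB subunit RELA, at 16.4 ± 0.98 against 14.1 ± 1.73 TPM, and neither was called on either scale.

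The demethylases of H3K4 were the most abundant of the KDM genes and held no rise. KDM5C, which removes di- and trimethylation and is mutated in X-linked intellectual disability, was the highest of the 60 genes at 102.02, 119.48 and 101.23 TPM in the ISLR-labelled libraries against 104.68, 106.12 and 100.53 TPM. The groups overlapped (limma adjusted p = 0.595 as deposited and 0.058 after scaling). KDM1A, the flavin-dependent demethylase LSD1 and the second most abundant, stood at 94.26, 92.51 and 88.84 against 76.37, 76.85 and 79.03 TPM. Its groups lay apart. KDM1A was called higher as deposited but not after scaling (adjusted p = 0.00261 and 0.968, interval of the scaled difference -0.11 to 0.10). Quantile normalization kept the call, at a log2 difference of 0.14 (adjusted p = 0.0385). When the trend over expression level was taken off the scaled values, KDM1A was also called higher (0.14, adjusted p = 0.0356). Taking off the length trend instead gave -0.03 (adjusted p = 0.678). KDM5A stood at 7.71, 7.98 and 7.81 against 7.77, 9.01 and 7.80 TPM, with overlapping groups. It was lower after scaling (-0.28, interval -0.49 to -0.07, adjusted p = 0.635 as deposited and 0.0448 after scaling), and that call was lost without any 1 of the 6 libraries (0.0596 to 0.114). KDM5B (20.2 ± 0.639 against 18.8 ± 0.636 TPM) and KDM1B (9.91 ± 0.981 against 10.2 ± 0.941 TPM) were not called on either scale. With the trend over length removed, KDM5A, KDM5B, KDM5C and KDM1B were all called lower (adjusted p = 0.0176, 0.0194, 0.018 and 0.0268).

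Among the demethylases of H3K9 and H3K36, 2 rose. KDM4A, which removes trimethylation from both lysines, stood at 20.27, 18.91 and 18.04 TPM in the ISLR-labelled libraries against 9.95, 8.93 and 10.29 TPM. Every library labelled ISLR was well above every one labelled NC, with a mean 1.96 times as high (0.67, interval 0.48 to 0.87, limma adjusted p = 0.000329 and 0.00105). KDM4A shares exon bases with KDM4A-AS1 on the opposite strand, which reached at most 7.16 TPM. It also shares them with AL451062.3 on the same strand, which reached at most 2.84 TPM. KDM2A, which binds unmethylated CpG islands and removes H3K36 dimethylation, stood at 18.57, 17.77 and 19.56 against 11.31, 12.58 and 12.21 TPM. The groups were apart here as well (0.36, interval 0.19 to 0.53, adjusted p = 0.0009 and 0.00779). KDM2B, a subunit of a Polycomb repressive complex 1 variant, stood at 19.21, 14.03 and 13.54 against 11.52, 8.92 and 8.68 TPM. Library 1 of each group was the highest, and the call as deposited (adjusted p = 0.0155) was not made after scaling (0.0986) or without labelled NC 2 (0.0502). KDM2B shares exon bases with RNF34 on the opposite strand, which reached at most 35.01 TPM.

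KDM3A, a hypoxia-responsive H3K9 demethylase, stood at 10.39, 10.07 and 10.27 against 10.19, 10.18 and 9.63 TPM. The groups overlapped within a narrow range (limma adjusted p = 0.737 and 0.067), and with the trend over length removed it was called lower (-0.29, adjusted p = 0.0182). Its paralog KDM3B stood at 17.74, 17.77 and 18.30 against 14.16, 13.57 and 14.01 TPM, with the groups apart but called as deposited only (adjusted p = 0.00358 and 0.168). KDM4B (7.71 ± 0.465 against 5.44 ± 0.458 TPM, adjusted p = 0.00892 and 0.103) and KDM4C (3.27 ± 0.335 against 1.96 ± 0.351 TPM, adjusted p = 0.0161 and 0.0769) were also called as deposited only, KDM4C not without labelled ISLR 1 (0.054). KDM4D was at 0.23 to 0.67 TPM and was not tested, and KDM4E and KDM4F were listed at 0 in every library. These 3 are neighbouring copies on chromosome 11, so their reads are hard to tell apart.

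The demethylases of H3K27 were KDM6A and KDM6B. KDM6B, an inducible enzyme also known as JMJD3, rose, at 4.84, 5.88 and 6.08 TPM in the ISLR-labelled libraries against 2.63, 2.79 and 3.21 TPM. The groups did not overlap and the mean was 1.95 times as high (0.57, interval 0.30 to 0.84, limma adjusted p = 0.00237 and 0.00796). KDM6A, an X-linked subunit of the KMT2C and KMT2D complexes, stood at 38.63, 10.96 and 9.76 against 7.90, 12.86 and 9.46 TPM. Library 1 labelled ISLR was far above the other 5, which overlapped (adjusted p = 0.375 and 0.579), and without it the fitted log2 difference as deposited fell from 0.66 to 0.06 (adjusted p = 0.826). KDM7A, which acts on H3K9 and H3K27, stood at 5.87 ± 0.258 against 3.96 ± 0.473 TPM (adjusted p = 0.0104 and 0.0804). KDM8 was low at 1.22, 2.37 and 1.35 against 1.07, 0.49 and 0.76 TPM (adjusted p = 0.0646 and 0.143).

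**Figure D3:**
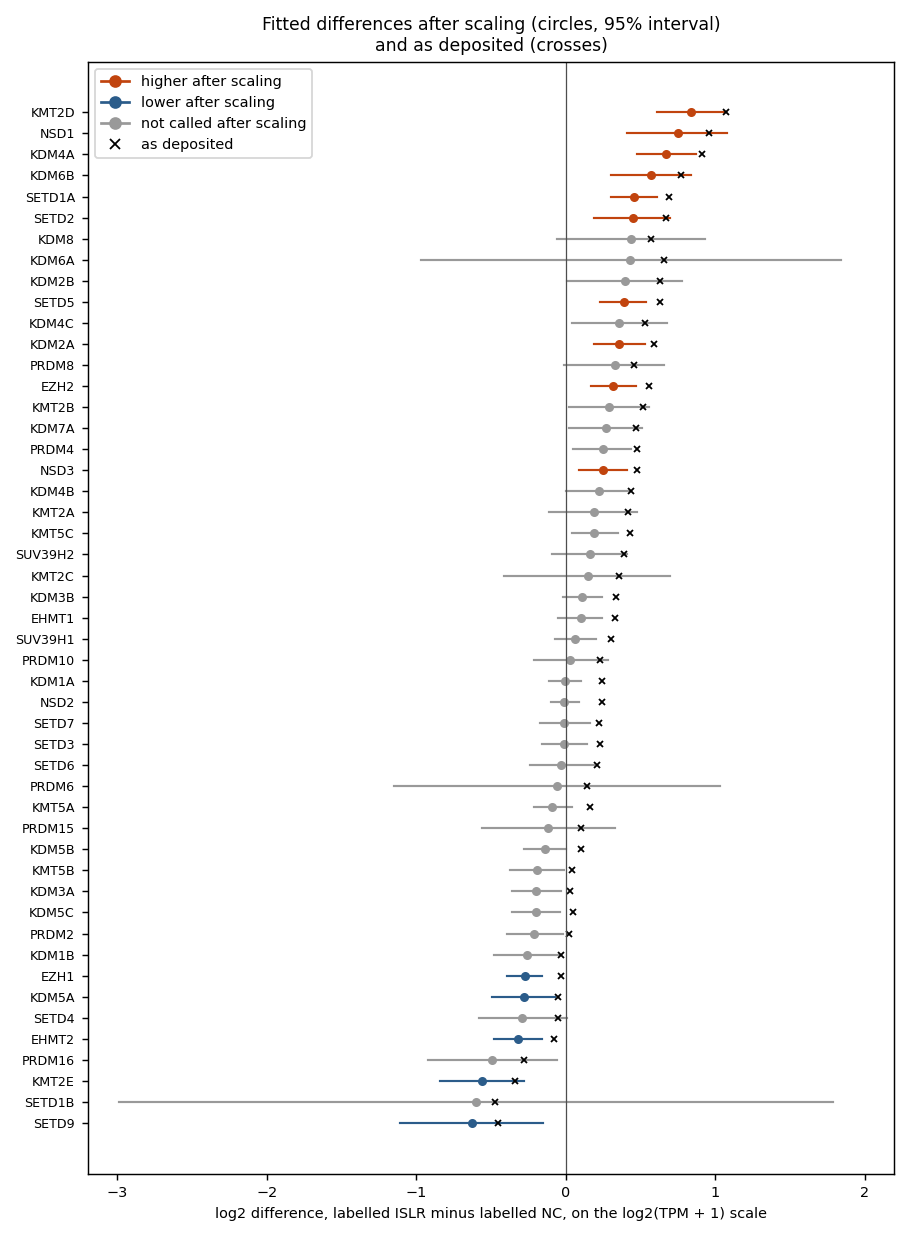
Fitted log2 difference (ISLR-labelled minus NC-labelled) of 49 of the 50 tested genes, as circles with 95% intervals after scaling and as crosses as deposited. Crosses lie to the right of their circles, and SETD1B and KDM6A have the widest intervals along with PRDM6. After scaling 10 genes are called higher, NSD3 with the smallest and KMT2D with the largest difference, and uncalled genes such as KDM2B and KDM8 lie between them.

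The PRDM genes are transcription factors with zinc fingers and a PR domain related to SET, and few of them have an established methyltransferase activity. None of the 8 tested was called after scaling. PRDM4 stood at 14.3 ± 0.471 TPM in the ISLR-labelled libraries against 10.0 ± 0.907 (limma adjusted p = 0.00379 as deposited and 0.05 after scaling, where it just missed the threshold). PRDM8 stood at 1.45 ± 0.225 against 0.787 ± 0.116 TPM (adjusted p = 0.0344 and 0.11), and its deposited call was lost when labelled ISLR 1 or 2, or else labelled NC 2 or 3, was left out (0.0966, 0.0906, 0.0878 and 0.0924). PRDM2, PRDM6, PRDM10, PRDM15 and PRDM16 were not called on either scale. With the trend over length also removed, PRDM2 (-0.30, adjusted p = 0.0226) and PRDM16 (-0.58, adjusted p = 0.0435) were called lower. PRDM6 was uneven within groups, at 3.16, 9.92 and 3.85 against 7.74, 3.38 and 3.27 TPM. Of the 7 that were not tested, PRDM14, a factor of germ cells and pluripotency, was listed at 0 in every library, and PRDM1, PRDM7, PRDM9, PRDM11, PRDM12 and PRDM13 did not exceed 0.75 TPM. PRDM7 and PRDM9 are near-identical copies, so their few reads cannot be told apart.

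Ratios of paralogs within a library, compared without a test, separated the groups for 8 of 14 listed pairs. Single genes did not overlap after scaling for 26.1% (above) and 26.6% (below) of all tested genes, so nothing particular to the pairs is read from that count. With 3 libraries a group, an exact permutation test cannot give a two-sided p below 0.1. The ISLR-labelled libraries had the higher ratio for 4 pairs and the lower for the other 4. Besides EZH2 to EZH1, NSD1 to NSD2 stood at 0.151, 0.211 and 0.189 against 0.0929, 0.0920 and 0.113, so that NSD1 remained the minor gene in every library. EHMT1 to EHMT2 stood at 0.837, 0.771 and 0.882 against 0.636, 0.570 and 0.635, and KDM4A to KDM4B at 2.80, 2.45 and 2.21 against 1.88, 1.5 and 2.03. Lower ratios were found for KMT2C to KMT2D at 0.341, 0.549 and 0.385 against 0.880, 0.612 and 0.634. KMT5B to KMT5C stood at 0.518, 0.545 and 0.592 against 0.720, 0.765 and 0.706, KDM3A to KDM3B at 0.586, 0.567 and 0.561 against 0.720, 0.750 and 0.687, and KDM5A to KDM5B at 0.390, 0.400 and 0.373 against 0.405, 0.471 and 0.432. SUV39H2 to SUV39H1, KMT2A to KMT2B, SETD1B to SETD1A, KDM1B to KDM1A, KDM2B to KDM2A and KDM6B to KDM6A overlapped.

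**Figure D4:**
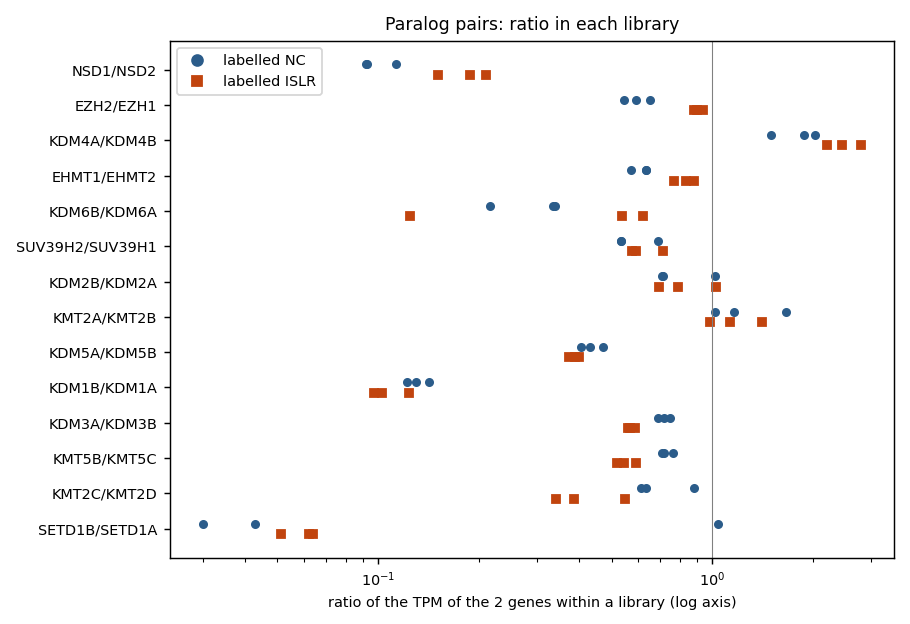
Ratio of the TPM of 2 paralogs within each library, on a log axis, for 14 pairs ordered by the difference between groups, with circles for NC-labelled libraries and squares for the ISLR-labelled ones. NSD1 to NSD2 and EZH2 to EZH1 lie higher in every library labelled ISLR, and KMT2C to KMT2D lies lower.

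Summed over genes, the methyltransferases stood at 572.75, 591.47 and 599.74 TPM in the ISLR-labelled libraries against 468.17, 460.03 and 477.85 TPM, and the KDM genes at 380.8, 364.21 and 344.98 against 298.86, 302.06 and 296.28 TPM. Both sums were higher in each library labelled ISLR, with ratios of means of 1.25 and 1.21. After scaling, a comparison added after seeing the data, these ratios were 1.06 (539 ± 3.76 against 511 ± 5.06 TPM, without overlap) and 1.02 (334 ± 22.6 against 326 ± 6.2 TPM, with overlap). As deposited, 17 of 26 methyltransferases, 9 of 16 tested KDM genes and 2 of 8 tested PRDM genes were called higher, with 38.5% of all tested genes. After scaling the numbers were 7 higher and 4 lower, 3 higher and 1 lower, and none, with 18.2% higher and 20.4% lower among all tested genes. Whether these groups of genes differ from each other was not tested.

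Partner and related genes outside the naming rule were read from 6 lists of 56 genes, of which 54 were tested. Of them 28 were called higher and 5 lower as deposited, and 16 and 14 after scaling. For these and the counts of single lists below, the shares of all tested genes were 38.5% higher and 7.38% lower as deposited and 18.2% and 20.4% after scaling, and no list was tested as a whole. The subunits of the COMPASS and MLL complexes, which several H3K4 methyltransferases need, were called higher for 9 of 12 and lower for none (38.5% and 7.38% of all tested genes). After scaling the numbers were 6 and 1 (18.2% and 20.4%). WDR82, a subunit of the SETD1A and SETD1B complexes, rose (28.3 ± 1.33 TPM in the ISLR-labelled libraries against 15.7 ± 0.241, limma adjusted p = 0.000168 and 0.000434), and so did WDR5 (39.9 against 25.9 TPM), MEN1, which encodes menin (59.7 against 35.8 TPM), and ASH2L (19.0 against 10.4 TPM). DPY30 alone of the 12 was lower after scaling (-0.16, adjusted p = 0.0301, chosen for mention after its value was seen).

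Of the 9 PRC2 subunits, 5 were called higher and none lower as deposited (38.5% and 7.38% of all tested genes), and 4 and 3 after scaling (18.2% and 20.4%). AEBP2, a DNA-binding accessory subunit, was the largest at 10.8 ± 0.865 against 3.99 ± 0.487 TPM (log2 difference 1.03, limma adjusted p = 0.000296 and 0.000478). SUZ12 of the core (11.6 against 7.17 TPM), JARID2 (3.53 against 2.08 TPM) and the histone chaperone RBBP4 (261 against 196 TPM) rose as well. RBBP7 was called higher as deposited and lower after scaling (300 against 284 TPM, -0.17, adjusted p = 0.0448 and 0.00278). EED, the core subunit that reads trimethylated H3K27, stood at 18.3 against 17.6 TPM and was not called on either scale (adjusted p = 0.545 and 0.063). RBBP7 and EED are named with their values already known.

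**Figure D5:**
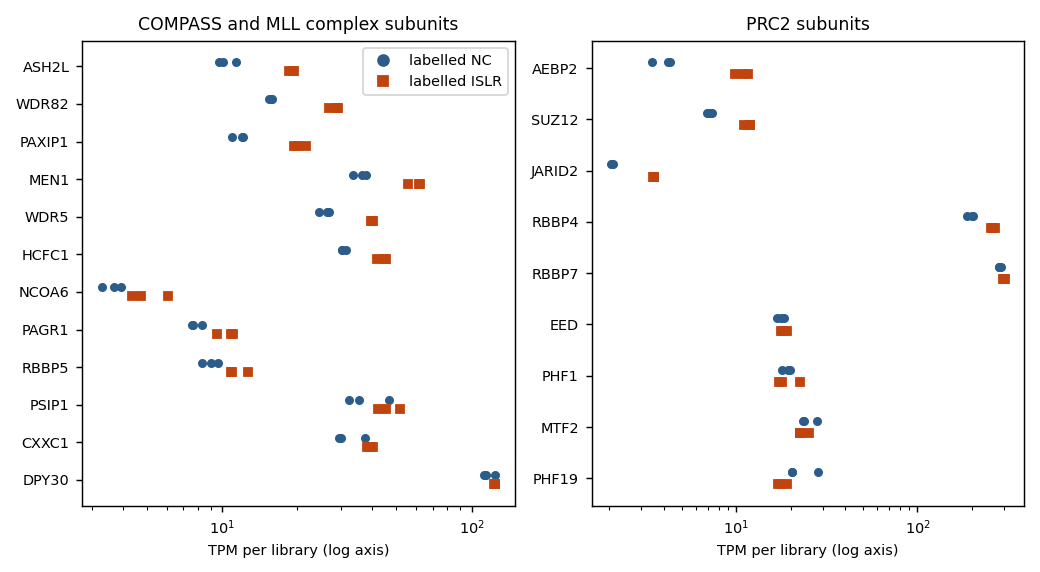
TPM per library (log axis) of the subunits of the COMPASS and MLL complexes (left) and of PRC2 (right), ordered by the difference after scaling, with circles for NC-labelled libraries and squares for the ISLR-labelled ones. ASH2L, WDR82 and AEBP2 show the groups apart, while EED and PHF1 overlap.

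Of 8 genes in the heterochromatin list, 2 were called higher and 1 lower as deposited (38.5% and 7.38% of all tested genes). After scaling the numbers were none and 4 (18.2% and 20.4%). The list also holds SETDB1 and SETDB2, which are H3K9 methyltransferases outside the naming rule. SETDB1 stood at 28.9 TPM in the ISLR-labelled libraries against 26.2 TPM (limma adjusted p = 0.0865 as deposited and 0.176 after scaling). SETDB2 stood at 2.86 against 1.87 TPM (limma adjusted p = 0.0842 and 0.291), and neither was called on either scale. CBX5, which encodes heterochromatin protein HP1 alpha, fell, with 46.2 ± 3.32 TPM in the ISLR-labelled libraries against 85.4 ± 5.62 TPM (-1.12, limma adjusted p = 0.000211 and 8.64e-05). TRIM28, the corepressor KAP1 (740 against 602 TPM), and ATF7IP, the partner of SETDB1 (7.01 against 4.8 TPM), were called higher as deposited only. WIZ, a zinc finger partner of EHMT1 and EHMT2, stood at 28.0 against 32.1 TPM and was lower after scaling only (-0.43, adjusted p = 0.0621 and 0.00343).

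Of the 7 genes of the CoREST complex, which works with KDM1A, 2 were called higher and 2 lower as deposited (38.5% and 7.38% of all tested genes), and none and 2 after scaling (18.2% and 20.4%). HDAC1 (157 against 189 TPM, limma adjusted p = 0.000513 and 7.63e-05) and HMG20B (151 against 178 TPM) fell, while RCOR2 (5.87 against 3.84 TPM) and RCOR1 (5.62 against 3.91 TPM) were called higher as deposited only. Among lysine methyltransferases and JmjC proteins with other names, 7 of 13 tested were called higher and 1 lower (38.5% and 7.38% of all tested genes), and 4 and 2 after scaling (18.2% and 20.4%). ASH1L, a further H3K36 methyltransferase (21.7 against 13.2 TPM, adjusted p = 0.000513 and 0.00356), SMYD4 (9.53 against 4.97 TPM) and PHF2 (7.09 against 4.37 TPM) rose, and SMYD5 (25.2 against 18.6 TPM) was called as deposited only. Of 5 genes of S-adenosylmethionine supply, 3 were called higher and 1 lower as deposited and 2 and 2 after scaling. Of these MTR, the methionine synthase (10.2 against 5.10 TPM, adjusted p = 0.000462 and 0.0011), and MAT2B (19.7 against 11.2 TPM) rose. MAT2A, the enzyme that makes S-adenosylmethionine, fell (123 against 150 TPM, adjusted p = 0.00104 and 0.000115). AHCY, which clears the product of methylation, was higher as deposited and lower after scaling (323 against 302 TPM, -0.15, adjusted p = 0.0201 and 0.00562).

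In the annotation of GENCODE 29, 22 of the 60 genes share exon bases with another gene, so their reads may not be their own alone. Among the 10 genes that rose these are KMT2D, NSD1, KDM4A, SETD1A and NSD3, while EZH2, KDM2A, KDM6B, SETD2 and SETD5 share none. The overlapping genes reached at most 1.32 TPM for KMT2D, 0.07 for NSD1, 7.16 for KDM4A, 0.59 for SETD1A and 38.27 for NSD3. Among genes that did not rise, SETD6 overlaps CNOT1 (at most 130.03 TPM), KDM2B RNF34 (35.01), KDM5A CCDC77 (11.05) and KMT2B IGFLR1 (7.5). On GRCh38 KMT2D (ENSG00000167548.15) lies on the minus strand of chromosome 12 (49018975 to 49059774), NSD1 (ENSG00000165671.20) on the plus strand of chromosome 5 (177133025 to 177300215), and KDM4A (ENSG00000066135.12) on the plus strand of chromosome 1 (43650158 to 43705515). EZH2 (ENSG00000106462.10) lies on chromosome 7 at 148807383 to 148884321 and EZH1 (ENSG00000108799.12) on chromosome 17 at 42700275 to 42745049, both on the minus strand. All 5 are protein-coding.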

How the data were processed

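RNA-seq of 6 libraries of HEK293FT cells was analysed, 3 labelled ISLR and 3 labelled NC, grouped by the sample titles, which the table's columns carry. The authors deposited TPM per gene and library, the mean TPM of each group and a length per gene. The p-values and adjusted p-values in the same deposited table are of a comparison by the authors, for which the table's name gives DESeq2 (settings not given in the sources used here). Named tools are HISAT2, Cufflinks and RSEM, with GRCh38.p10 as the build (per the submitters' processing notes), without role or version, and the one behind the TPM is unknown. TPM holds no depth, so no counting error could be computed.

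After 1 blank row was left out, genes that reached 1 TPM in 3 or more libraries were fitted as log2(TPM + 1) with limma 3.58.1 in R 4.3.3 (group as the only term, trend and robust options, two-sided, Benjamini-Hochberg over 13869 genes, adjusted p under 0.05). A fold on that scale understates the change of low genes. The filter keeps a gene that reaches 1 TPM in 1 group only. The same fit was run after median-of-ratios scaling, with factors of 1.07 to 1.11 for ISLR-labelled libraries and 0.908 to 0.925 for NC-labelled ones. The fit was tested on simulated data. Alternatives were other scalings, pseudocounts, filters and thresholds, a length or expression trend removed by lowess, a replicate block, and each library left out, also after scaling (added after seeing the data). Members, roles, pairs and partner lists were chosen with earlier results of these data known. Values in every library were printed for genes with the same call on both scales, for pairs, and for EZH1, EZH2, KDM1A, KMT2A, SETD2, KDM3A, KDM6A and KDM6B. Up to 4 partner genes per list were named by smallest p, with DPY30, RBBP7, EED, SETDB1 and SETDB2 added after their values had been seen. Per-library values of SETD1B, KMT2E, SETD9, KDM5A, KDM8, KDM5C, KDM2B and PRDM6 were added after their values had been seen. 1 tested gene is included in the counts but not reported here by itself. Promoter sequences are from RefSeq (GRCh38.p14) and were matched by symbol for 53 of 60 genes, and positions are from GENCODE 29.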

Additional observations from a re-analysis of the deposited data

How the results depend on the processing

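Of the 28 genes called higher as deposited, the count was 10 after median-of-ratios scaling, 11 with quantile-normalized values, 11 and 10 when scaling was joined to removal of the expression or length trend, 10 with scaling and the replicate block (added after seeing the data), and 1 with a change of at least 2-fold (KMT2D). The count of 0 lower became 5, 7, 9, 11 and 6 under the first 5 of these in that order, 1 with a filter of 5 TPM, 1 with the replicate block and 5 in the authors' deposited table. Without 1 library the counts ranged from 21 to 25 higher and 0 to 2 lower as deposited, and from 8 to 10 higher and 3 to 4 lower after scaling. Other pseudocounts, no filter, limma without trend and robust and an adjusted p under 0.01 gave 19 to 28 higher and 0 lower. Nothing in the labels says that the replicate numbers pair the libraries. The deviations of same-numbered libraries correlated at 0.0201, 0.0468 and -0.0556 over all tested genes. Over the tested genes of the families described here these values were -0.311, -0.192 and 0.188. With so few libraries, such correlations cannot show whether the libraries are paired. The replicate block as deposited gave 23 higher.

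The log2 difference of some genes changed sign relative to the deposited scale, among them KDM1A, NSD2, SETD3, SETD7 and KMT5A, which were called higher as deposited. After scaling the log2 difference became -0.01 for SETD7, -0.20 for KDM5C, -0.01 for NSD2, -0.20 for KDM3A, -0.00275 for KDM1A, -0.19 for KMT5B, -0.14 for KDM5B, -0.09 for KMT5A, -0.12 for PRDM15, -0.03 for SETD6, -0.21 for PRDM2, -0.01 for SETD3 and -0.06 for PRDM6. After quantile normalization it became -0.06 for SETD7, -0.02 for KDM5C, -0.25 for KDM3A, -0.22 for KMT5B, -0.16 for KDM5B, -0.0000655 for KMT5A, -0.19 for PRDM15, -0.05 for SETD6, -0.24 for PRDM2, -0.02 for SETD3, -0.13 for PRDM6 and -0.05 for PRDM10. With scaling and the length trend removed it became -0.10 for SETD7, -0.30 for KDM5C, -0.10 for NSD2, -0.29 for KDM3A, -0.03 for KDM1A, -0.29 for KMT5B, -0.22 for KDM5B, -0.11 for KMT5A, -0.21 for PRDM15, -0.07 for SETD6, -0.30 for PRDM2, -0.02 for SETD3, -0.15 for PRDM6 and -0.06 for PRDM10. With scaling and the expression trend removed it became -0.08 for SETD7, -0.03 for KDM5C, -0.26 for KDM3A, -0.24 for KMT5B, -0.15 for KDM5B, -0.01 for KMT5A, -0.22 for PRDM15, -0.07 for SETD6, -0.26 for PRDM2, -0.01 for SETD3, -0.17 for PRDM6 and -0.08 for PRDM10. Without 1 library the log2 difference as deposited ranged from -0.10 to 0.03 for KDM1B, from -0.09 to 0.01 for KDM5A, from -0.03 to 0.09 for KDM5C, from -0.00147 to 0.12 for KMT5B, from -0.08 to 0.29 for PRDM15, from -0.01 to 0.07 for PRDM2, from -0.28 to 0.48 for PRDM6, from -1.04 to 0.61 for SETD1B and from -0.14 to 0.07 for SETD4. The cause of these turns was not tested. The log2 ratio of SETD1B to SETD1A differed between groups by -0.90 with all libraries and by 0.71 without labelled NC 3. Unknown depth limits what can be said of the 10 genes below the filter.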

Other observations

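At an adjusted p below 0.05, the authors' deposited table called 29 of the 60 genes, all of them among the 50 tested here. The ISLR-labelled mean was above for 24 and below for 5, where 32.9% and 18.3% of the 13869 tested genes were called. All 10 genes that rose here were among the 24. Of the 28 genes called higher as deposited, 20 were called there and 8 were not, although the TPM of the groups did not overlap for any of the 8. For SUV39H1 (27.46, 28.05 and 28.14 against 23.31, 22.62 and 21.30 TPM) the authors' deposited table gives an adjusted p of 0.922, for KDM4C 0.881, for SETD3 0.489 and for KDM3B 0.431. Conversely 9 genes were called there but not here as deposited, among them KDM3A, whose TPM overlapped between groups, at 7.67e-05, SETD1B at 3.28e-07 and EHMT2 at 8.39e-07, both with a lower mean (that of SETD1B set by labelled NC 3), in the authors' deposited table. The input of that comparison is unknown, and the cause of these differences was not tested.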
